A study of Homo sapiens with 32 samples.

Results

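SOX4 and SOX11 are the genes described here, through the H3K27ac-marked regions that lie nearest to them in SK-N-BE(2)C cells, an established human neuroblastoma cell line of the adrenergic type with MYCN amplification. The genes were chosen with earlier results of these data known, and their regions were then taken by position. A deposited region counted as SOX4 or SOX11 when its nearest protein-coding start site (GENCODE, hg19) was that gene's and lay within 100 kb, a rule that links a region to a gene by distance and not by function. It gave 16 of 92108 regions, 15 for SOX4 and 1 for SOX11. H3K27ac ChIP-seq was compared after 5 days in DMSO (the vehicle), palbociclib (PB), retinoic acid (RA) or PB+RA, with 4 ChIP libraries per group, which the study's methods call biological replicates, and with an input library for each that served only as the authors' reference. All 4 groups are the same line, with no other allele or agent, and the treatment text shared by the samples gives palbociclib at 1 µM. Results from 1 cell line hold for that line.

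SOX4, SOX11 and SOX12 form the SoxC group of transcription factors, single-exon genes whose proteins bind DNA through an HMG box. SOX4 and SOX11 are known for their part in the development of immature neurons and of the sympathetic lineage from which neuroblastoma arises. H3K27ac is laid down by p300 and CBP at active promoters and enhancers. Retinoic acid binds nuclear receptors that sit on direct repeats of a short core motif, and palbociclib blocks the cyclin-dependent kinases that drive cells out of G1.

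Both genes read on the plus strand, SOX4 from chr6:21593982 and SOX11 from chr2:5832516. Regions are named by the distance in kb of their nearest edge from that start site, with a minus sign for upstream. The SOX4 set held 5 upstream regions, 1 over the start site and 9 downstream. The upstream regions lay within long non-coding RNA genes, LINC00581 and the antisense ENSG00000283480, and the SOX4 -69.3 kb region (chr6:21520361-21524655) covered the starts of LINC00581 and ENSG00000231754. Of the downstream regions, 7 overlapped no annotated gene, the SOX4 +69.7 kb region (chr6:21663667-21667511) covered the first exon of the non-coding RNA gene CASC15, and the SOX4 +91.9 kb region lay in a CASC15 intron. The SOX11 region (chr2:5831073-5838891) covered the SOX11 start and the starts of 3 non-coding genes, LINC01248 among them.

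The sequences below were read from the GRCh37 (hg19) genome on the plus strand. Shown first are the 300 bases before the SOX4 start site, since they lie under a peak in 15 of 16 libraries (not DMSO replicate 2). They are followed by the centre of the region that rose most with RA and the centre of the one that fell most with PB in mean concentration. Capitals mark the retinoid receptor core AGGTCA, the E-box CANNTG and the SOX cores ACAAAG and ACAATG on either strand.
SOX4 promoter, chr6:21593682-21593981: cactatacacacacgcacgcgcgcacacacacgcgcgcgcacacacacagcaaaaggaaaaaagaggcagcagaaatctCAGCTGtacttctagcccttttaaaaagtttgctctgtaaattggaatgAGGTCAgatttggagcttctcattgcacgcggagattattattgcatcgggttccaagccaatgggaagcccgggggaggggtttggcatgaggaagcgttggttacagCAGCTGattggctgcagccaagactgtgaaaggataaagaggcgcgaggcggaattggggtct
SOX4 +69.7 kb centre, chr6:21665440-21665739: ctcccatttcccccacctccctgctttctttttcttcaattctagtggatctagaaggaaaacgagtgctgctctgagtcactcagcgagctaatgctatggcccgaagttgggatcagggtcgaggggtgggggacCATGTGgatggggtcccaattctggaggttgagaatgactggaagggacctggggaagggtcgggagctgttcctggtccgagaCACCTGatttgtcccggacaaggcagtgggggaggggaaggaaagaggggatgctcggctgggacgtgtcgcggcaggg
SOX4 -54.8 kb centre, chr6:21537995-21538294: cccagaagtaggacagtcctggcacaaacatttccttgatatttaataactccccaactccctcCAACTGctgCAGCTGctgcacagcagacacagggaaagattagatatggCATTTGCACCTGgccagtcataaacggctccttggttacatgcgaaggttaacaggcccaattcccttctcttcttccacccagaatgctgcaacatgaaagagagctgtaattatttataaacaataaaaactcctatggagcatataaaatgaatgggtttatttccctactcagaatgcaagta

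The SOX4 promoter window held 1 AGGTCA and 2 E-boxes with 16 CpG. No exact direct repeat of AGGTCA with a spacer of 5, 2 or 1 bases (DR5, DR2, DR1) stood in the central 300 bases of any of the 16 regions, where such repeats occur in 0.0152% to 0.0261% of all regions. With up to 2 mismatches in the 12 fixed letters, a DR5 stood at the centres of 2 regions, SOX4 -69.3 kb and SOX4 +39.9 kb. A DR2 stood at SOX4 +54.0 kb and a DR1 at SOX4 +91.9 kb. The 2 regions with a DR5 were called higher with RA, as described further on, and the other 2 were not. SOX4 +54.0 kb had no peak in any DMSO or RA library, so it could not be called with RA. Whether a repeat goes with a call was not tested. SOX4 +69.7 kb, which rose most with RA, had no near repeat and no AGGTCA at its centre. Such near matches are common, in 2.91% (DR5), 5.15% (DR2) and 3.37% (DR1) of all regions, and a match of letters is not a bound site. Both DR5 matches are shown with 12 bases on each side, the repeat in capitals.
SOX4 -69.3 kb near DR5, chr6:21522519-21522559: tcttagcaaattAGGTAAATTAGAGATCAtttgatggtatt
SOX4 +39.9 kb near DR5, chr6:21635100-21635140: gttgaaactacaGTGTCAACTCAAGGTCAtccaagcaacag

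Over all 16 centres, AGGTCA was found in 5 against 18.9% of all regions, an E-box in 15 against 79.1%, and a SOX core in 6 against 30.8%. The E-box is the motif of basic helix-loop-helix factors such as MYCN and the proneural factors.

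Values of 2 kinds were available. The first is the authors' mean log2 concentration of reads in each group, a mean without replicate values. The second is the fold enrichment of each library's own broad peaks, averaged here over the bases of a region with bases outside a peak set to 1, so that 1 means that no peak was listed and not that enrichment was measured as 1. Differences in the second were tested on the log2 scale with limma across all 92108 regions, and a region was called when its Benjamini-Hochberg adjusted p was under 0.05 and the difference was beyond 0.5. An exact two-sided permutation test of 4 against 4 libraries cannot go below p = 0.0286. The files give no read depth, so the precision of a single library is unknown. Lists held 64516 to 104392 peaks, and the median enrichment over the 26508 regions with a peak in all 16 libraries was 4.79 to 7.02. It was lower in PB replicates 3 and 4 (5.30 and 4.79) than in PB replicates 1 and 2 (6.64 and 6.77).

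The SOX4 start-site and -3.5 kb regions were among the highest of all regions in each group. The authors' mean log2 concentration of the SOX4 start-site region (chr6:21592888-21605948) was 11.10 (DMSO), 10.94 (PB), 11.46 (RA) and 11.73 (PB+RA), ranks 632, 577, 330 and 257 from the top. The SOX4 -3.5 kb region (chr6:21586594-21590506), the neighbouring upstream block, had 10.57, 10.40, 10.53 and 10.74. The SOX11 region had 9.69, 8.98, 9.89 and 9.31. The remaining 13 SOX4 regions were weaker in DMSO, from 1.92 to 7.55.

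**Figure D1:**
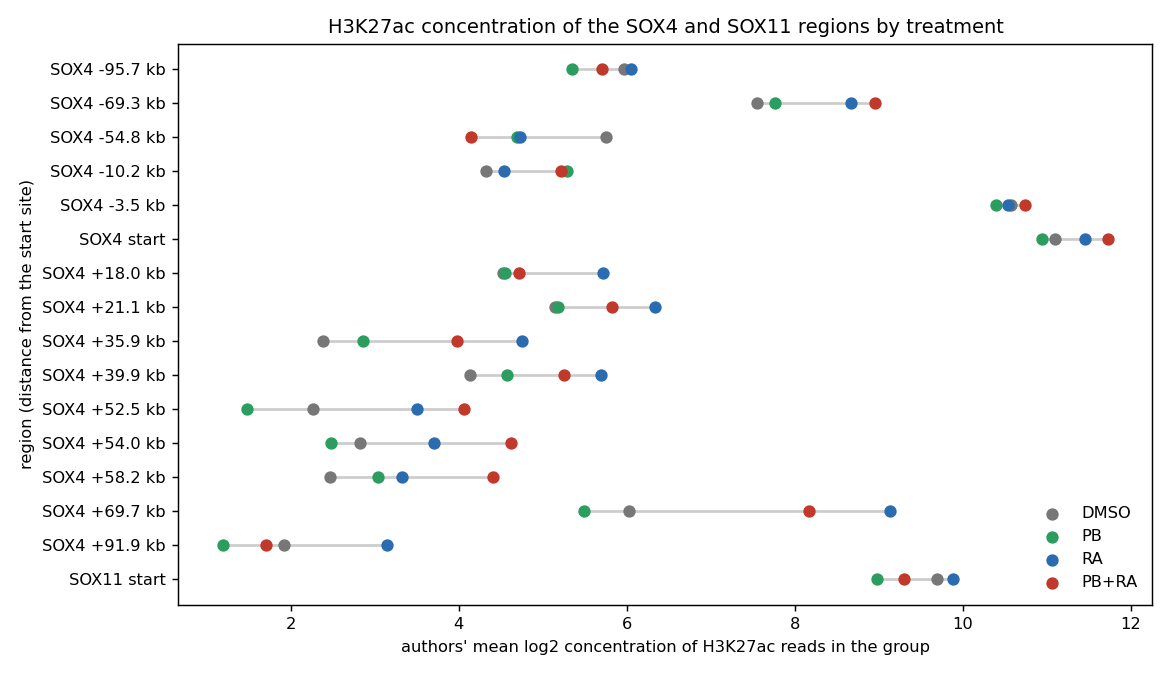
Authors' mean log2 concentration (x axis) of each SOX4 and SOX11 region (y axis), 1 point per treatment group and no error because the values are group means. RA (blue) lies to the right of DMSO (grey) at all 9 downstream SOX4 regions, most at +69.7 kb (6.02 to 9.14), while the 4 points nearly coincide at -3.5 kb.

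With RA, H3K27ac rose downstream of SOX4. The authors' concentration was above DMSO at 9 of 9 downstream regions, with a median difference of 1.22 on the log2 scale, against -0.01 over all 92108 regions, while the 5 upstream regions had a median difference of 0.09. In the peak lists, 6 of 15 SOX4 regions were called higher with RA and 0 lower, where 8.52% of all regions were called higher and 6.11% lower. Of the 9 downstream regions, 5 had peaks in at least 2 libraries of RA or PB+RA only, so that at least 1 of these groups had to be higher than DMSO in the peak lists, and 3 had peaks in at least 2 DMSO libraries. These 3 were all called higher with RA, where 6.11% of all regions with such DMSO peaks were called higher and 9.3% lower. Of all 8 SOX4 regions with such peaks, 4 were called higher with RA and 0 lower. The total length under peaks in the 9 downstream regions was 1.80 ± 0.86 kb (SD, n = 4) in the DMSO libraries, 1.29 ± 0.59 kb in PB, 7.37 ± 0.67 kb in RA and 5.84 ± 2.2 kb in PB+RA. In cell populations, more cells that carry the mark and more mark per cell cannot be told apart. The lowest RA library (6.64 kb) lay above the highest DMSO library (3.02 kb). In the 5 upstream regions the same length was 7.85 ± 1.46 kb in DMSO and 8.68 ± 1.56 kb with RA, and these overlapped. The downstream total includes the 5 regions that entered through RA or PB+RA only, so part of its difference was set by that filter. At the 3 with peaks in at least 2 DMSO libraries, mean lengths in DMSO and RA were 0.269 and 0.896 kb (+18.0 kb), 0.625 and 1.5 kb (+21.1 kb), and 0.909 and 3.25 kb (+69.7 kb). Libraries of the groups overlapped in length at +21.1 kb.

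**Figure D2:**
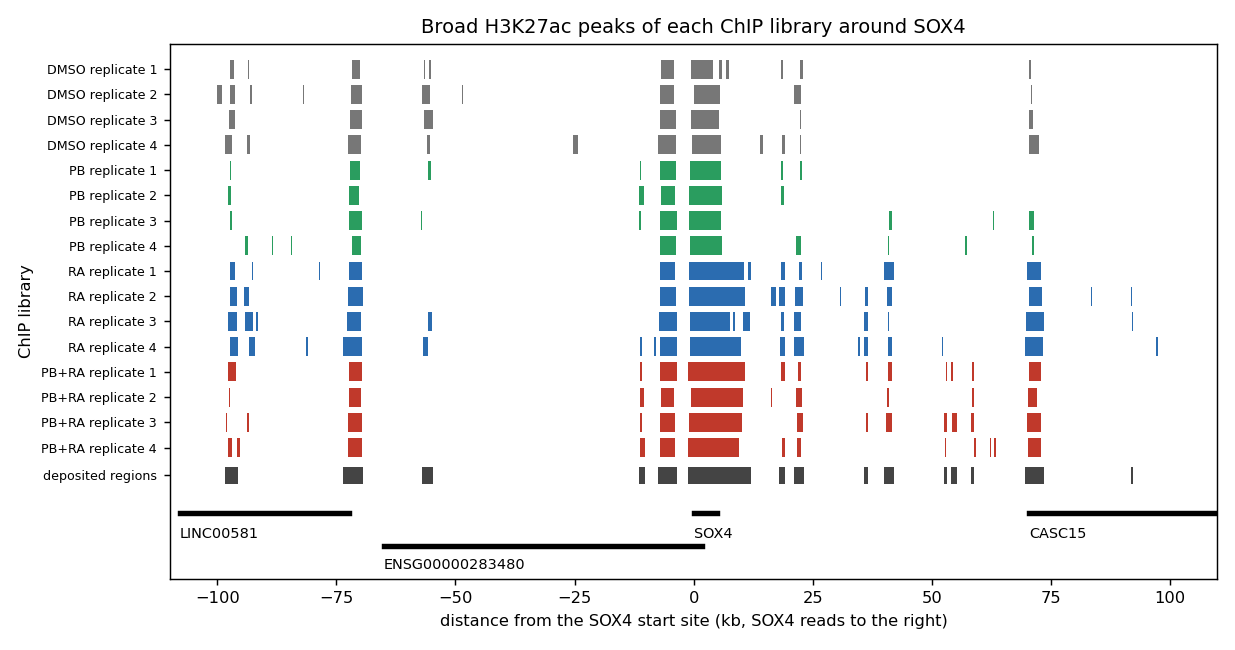
Broad H3K27ac peaks of the 16 ChIP libraries (rows, coloured by group) against distance from the SOX4 start site in kb, with the deposited regions (dark grey) and annotated genes below; ENSG00000283480 is the antisense non-coding RNA. The block at the start site runs on to about 10 kb downstream in RA and PB+RA libraries, and the peak at +69.7 kb is wide in the same libraries.

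The region that changed most was the start of CASC15, SOX4 +69.7 kb. Its fold enrichment was 1.15, 1.11, 1.62 and 2.76 in the DMSO libraries and 1.00, 1.00, 1.80 and 1.34 in the PB libraries. It was 10.5, 9.63, 11.0 and 12.5 in the RA libraries and 5.05, 4.06, 5.79 and 6.90 in the PB+RA libraries. The RA and PB+RA libraries thus stood above every DMSO and PB library, and RA above PB+RA, with no overlap. The log2 difference was 2.81 (SE 0.27, limma adjusted p = 1.02e-07) for RA against DMSO and 1.79 (SE 0.27, adjusted p = 1.72e-05) for PB+RA against DMSO, and both calls held in every alternative and without any single library. In the authors' concentrations its RA difference of 3.12 ranked 381 of 92108. The peaks were both wider and higher, covering 23.6% ± 23.6 of the region in DMSO and 84.5% ± 11.3 with RA, at an enrichment under the peaks of 3.31 ± 0.74 and 12.8 ± 0.89 (n = 4). Whether the mark there belongs to CASC15 or to SOX4 cannot be told apart from H3K27ac.

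**Figure D3:**
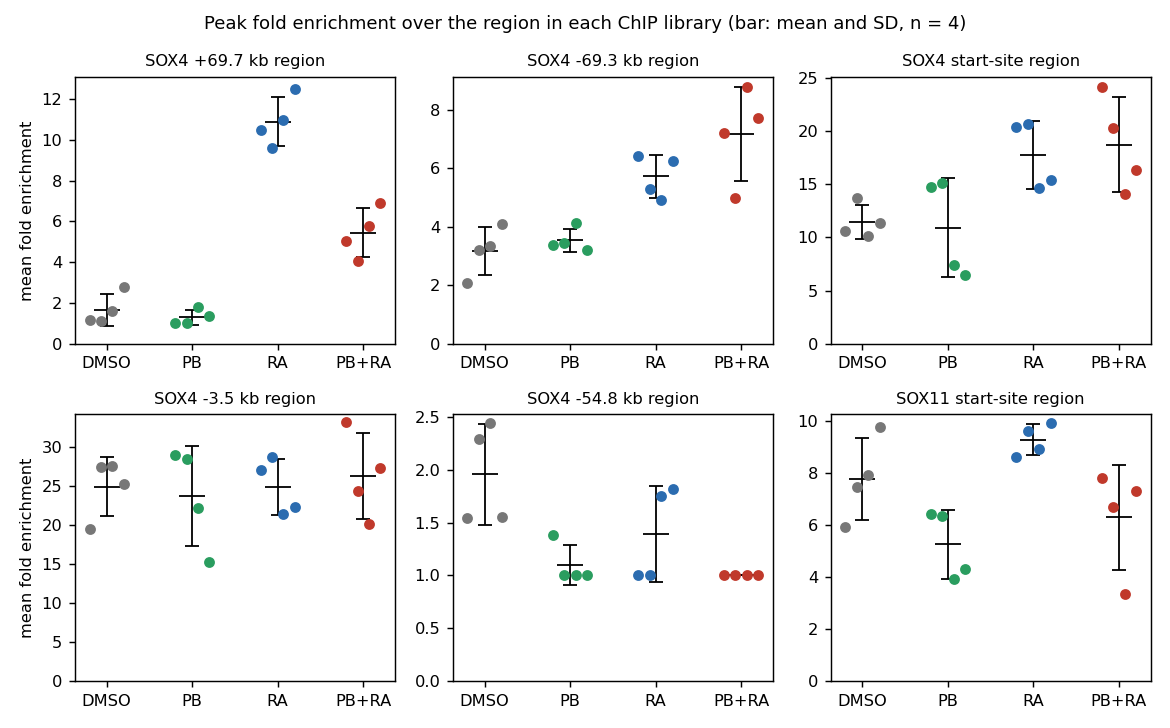
Mean fold enrichment (y axis, from 0) in each ChIP library at 5 SOX4 regions and the SOX11 region, with the group mean and SD (n = 4). At +69.7 kb the RA libraries sit between 9.63 and 12.5 and the PB+RA libraries between 4.06 and 6.90, while the groups overlap at -3.5 kb.

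At the SOX4 start site, the marked block was wider with RA and with PB+RA. Peaks covered 6.06, 5.62, 5.92 and 6.28 kb of the 13060-base region in the DMSO libraries and 6.67, 6.79, 6.74 and 6.68 kb in the PB libraries. They covered 12.1, 11.6, 10.3 and 10.8 kb in the RA libraries and 11.8, 11.1, 11.1 and 10.7 kb in the PB+RA libraries. Every RA and PB+RA library thus had a longer marked stretch than every DMSO or PB library. As a share of the region, the difference from DMSO was 39.9 percentage points (SE 6.41, limma adjusted p = 0.00016) with RA and 39.8 (SE 6.41, adjusted p = 0.000137) with PB+RA, where 7.40% and 13.4% of all regions were called higher on this scale, and 5.27% and 10.4% lower. The edges of the region were drawn from the peaks of all groups together. A lower share in the groups with shorter peaks was thus partly set by how the region was made. Enrichment under the peaks was 24.0 ± 4.39 in DMSO libraries, 20.3 ± 9.01 in PB, 20.5 ± 2.43 in RA and 21.7 ± 4.50 in PB+RA (SD, n = 4), within each other's spread. Averaged over the whole region, fold enrichment was 11.5 ± 1.57 in DMSO, 17.8 ± 3.19 with RA and 18.7 ± 4.46 with PB+RA. The groups did not overlap with DMSO, but this average was not called (log2 difference 0.63, SE 0.28, limma adjusted p = 0.126 for RA, and 0.69, SE 0.28, adjusted p = 0.0606 for PB+RA). It was called with libraries scaled to a common median (limma adjusted p = 0.0222 for RA and 0.0240 for PB+RA) and, for PB+RA, with a replicate block (0.0418) and with peaks of −log10 q of at least 5 (0.0361). The 2 scales therefore gave different calls for the same block.

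The SOX4 -3.5 kb region, the most enriched of the set, showed no difference that passed the test. Its fold enrichment was 24.9 (DMSO), 23.7 (PB), 24.9 (RA) and 26.3 (PB+RA), with libraries from 15.2 to 33.3. The log2 difference with RA was -0.0013 (SE 0.28, limma adjusted p = 1.00). Further upstream, the SOX4 -69.3 kb region at the LINC00581 start rose with RA. Its fold enrichment was 2.06, 3.20, 3.34 and 4.08 in DMSO, 3.38, 3.43, 4.11 and 3.20 with PB, 6.43, 5.30, 4.90 and 6.26 with RA, and 7.20, 4.98, 8.79 and 7.72 with PB+RA. The RA and PB+RA libraries were all above the DMSO and PB libraries (0.88, SE 0.23, limma adjusted p = 0.0078 for RA against DMSO, and 1.19, SE 0.23, adjusted p = 0.000292 for PB+RA). On the share of bases under peaks, the RA difference at this region was not called (limma adjusted p = 0.0961).

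The remaining RA calls were weak peaks between SOX4 and CASC15. The SOX4 +21.1 kb region had 2.54, 3.07, 2.88 and 3.87 with RA against 1.61, 2.14, 1.17 and 1.21 in DMSO (log2 difference 1.04, SE 0.28, limma adjusted p = 0.00994). The SOX4 +18.0 kb region had 2.34 to 3.11 with RA against 1.00 to 1.88 (0.98, SE 0.33, adjusted p = 0.0416). The groups did not overlap at either. The SOX4 +39.9 kb region had no peak in any DMSO library and a peak in all 4 RA libraries, at 1.14 to 3.09 (0.96, SE 0.32, limma adjusted p = 0.0410). The SOX4 +35.9 kb region had no DMSO peak and a peak in 3 of 4 RA libraries (1.15, SE 0.33, adjusted p = 0.0160), and the fourth RA library was at 1. It entered the deposited table through RA and PB+RA peaks only, and SOX4 +39.9 kb through PB, RA and PB+RA peaks. At both, at least 1 treated group thus had to be higher than DMSO in the peak lists. At regions with no peak in a group, the fitted difference depends on the value given to bases without a peak. Of the RA calls, SOX4 +18.0 kb was lost when any 1 of 7 libraries was left out, SOX4 +39.9 kb with any 1 of 8 and SOX4 +35.9 kb without RA replicate 2 or 4. The exact permutation p at SOX4 +35.9 kb was 0.143. The call at SOX4 +21.1 kb held without any single library. It was lost on the share of bases under peaks (limma adjusted p = 0.0614), with the highest peak and with peaks of −log10 q of at least 5. Groups did not overlap at 6 of 15 SOX4 regions with RA, all higher, against 8.93% of all regions higher and 6.67% lower.

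**Figure D4:**
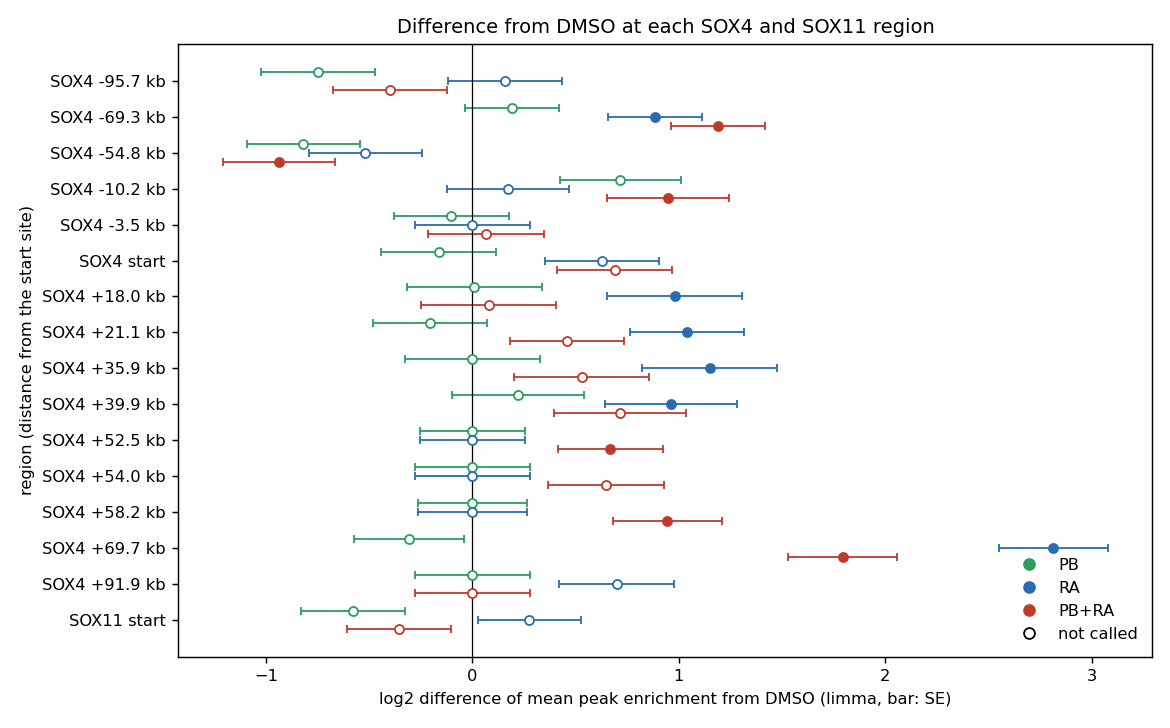
Log2 difference of mean peak enrichment from DMSO (x axis, bars: SE) at each region for PB (green), RA (blue) and PB+RA (red), filled where called. RA at +69.7 kb lies at 2.81 and no PB point is filled.

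PB alone moved no SOX4 region past the test. In the PB comparison 0 of 15 were called (limma, adjusted p under 0.05), where 2.77% of all regions were called higher and 4.33% lower. At an unadjusted p under 0.05 there were 3, where 25.6% of all regions passed. Of the 3, 2, SOX4 -95.7 kb and SOX4 -54.8 kb, also had groups that did not overlap (exact permutation p = 0.0286), both lower with PB, against 4.82% of all regions lower and 3.5% higher in this way. The SOX4 -54.8 kb region, in an exon of ENSG00000283480, had 1.54, 2.29, 2.45 and 1.55 in the DMSO libraries. It had a peak in 1 PB library (1.38), 2 RA libraries (1.75 and 1.82) and no PB+RA library. The log2 difference was -0.82 (SE 0.27, limma adjusted p = 0.0634) with PB and -0.94 (SE 0.27, adjusted p = 0.0110) with PB+RA. No other member was called lower than DMSO. The SOX4 -95.7 kb region, in a LINC00581 intron, had 1.59 to 2.83 in DMSO and 1.00 to 1.43 with PB (-0.75, SE 0.28, limma adjusted p = 0.0969). The SOX4 -10.2 kb region went the other way, with no peak in DMSO, a peak in 3 PB libraries at 1.5, 2.75 and 1.76 (0.72, SE 0.29, limma adjusted p = 0.130) and a peak in all 4 PB+RA libraries at 1.60 to 2.55 (0.95, SE 0.29, adjusted p = 0.0163). The PB+RA call at this region was lost without PB+RA replicate 4 and with centring by GC content (0.38, adjusted p = 0.389).

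With PB+RA, 5 of 15 SOX4 regions were called higher than DMSO and 1 lower, where 17.1% and 12.1% of all regions were. They were SOX4 -69.3 kb, -10.2 kb, +52.5 kb, +58.2 kb and +69.7 kb, and -54.8 kb lower. Groups did not overlap at 4 regions higher and 1 lower, against 14.1% and 7.90% of all regions. The SOX4 +58.2 kb region had no peak in any DMSO, PB or RA library and 2.37, 2.03, 2.85 and 1.00 in the PB+RA libraries (0.94, SE 0.26, limma adjusted p = 0.00804). This call was lost with peaks of −log10 q of at least 5, with the groups compared alone and in the exact permutation test (p = 0.143). The SOX4 +52.5 kb region, also without a peak in DMSO, PB or RA, had 1.44, 1.00, 3.02 and 1.46 with PB+RA (0.67, SE 0.26, limma adjusted p = 0.0493). That call was lost under 8 of 11 alternatives and when any 1 of 15 of the 16 libraries was left out. These 2 and SOX4 +54.0 kb entered the deposited table through PB+RA peaks alone, and SOX4 +91.9 kb through RA peaks alone, so that their groups had to differ in the peak lists. The other 12 regions had peaks in at least 2 libraries of 2 or more groups, though not always of DMSO. SOX4 -10.2 kb entered through PB and PB+RA peaks only, so that at least 1 of these groups had to be higher than DMSO. Of the 8 SOX4 regions with peaks in at least 2 DMSO libraries, 2 were called higher with PB+RA and 1 lower. Of all regions with such peaks, 10.7% were called higher and 18.4% lower.

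In PB+RA the start-site block of SOX4 covered the same length as in RA within the spread, and the CASC15 start was lower than in RA. Of the 15 SOX4 regions, 1 was called higher in PB+RA than in RA and 1 lower, where 7.58% and 4.58% of all regions were. The higher one was SOX4 +58.2 kb, which the filter had fixed as higher in PB+RA. SOX4 +69.7 kb was lower by a log2 difference of -1.02 (SE 0.27, limma adjusted p = 0.0130). This call was lost on the share of bases under peaks (limma adjusted p = 0.306), with centring by GC content (-0.70, adjusted p = 0.107) and under 3 other alternatives, while keeping its direction. The 4 weak downstream regions that rose with RA, at +18.0, +21.1, +35.9 and +39.9 kb, had PB+RA minus RA differences of -0.90, -0.58, -0.62 and -0.25, none of which passed the test (limma adjusted p = 0.0689 to 0.647). At the start site the covered share differed by -0.16 percentage points (SE 6.41, limma adjusted p = 1.00). Against PB, 4 SOX4 regions were called higher with PB+RA and 0 lower, where 10.7% and 3.59% of all regions were: -69.3 kb, the start site, +69.7 kb and, fixed by the filter, +58.2 kb. Groups did not overlap at 2 of the 15 regions, -69.3 kb and +69.7 kb, both higher, against 10.4% of all regions higher and 4.13% lower. On the share of bases under peaks the start site was higher by 34 percentage points (SE 6.41, limma adjusted p = 0.00123), where 7.82% of all regions were called higher and 2.3% lower. This share too was taken over a region drawn from the peaks of all groups. The start-site call on mean enrichment (0.85, SE 0.28, limma adjusted p = 0.0371) was lost when any 1 of 5 libraries was left out, PB replicates 3 and 4 among them. The part of the lower median enrichment of these libraries in that result was not tested. The interaction of PB and RA was called at 0 of 16 regions (limma), where 0.0337% of all regions were called higher and 0.013% lower. At an unadjusted p under 0.05 there was 1, SOX4 +58.2 kb, fixed by the same filter, where 12% of all regions passed.

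SOX11 had 1 region within 100 kb, and no difference there passed the test. Its fold enrichment was 5.94, 7.47, 7.92 and 9.75 in DMSO and 6.44, 6.36, 3.91 and 4.30 with PB. It was 8.63, 9.61, 8.93 and 9.92 with RA and 7.82, 6.68, 3.35 and 7.30 with PB+RA. RA was above PB+RA without overlap, and it overlapped DMSO. The log2 difference from DMSO was -0.58 (SE 0.25, limma adjusted p = 0.148) with PB, 0.28 (SE 0.25, adjusted p = 0.518) with RA and -0.36 (SE 0.25, adjusted p = 0.280) with PB+RA. With peaks of −log10 q of at least 5 only, the PB difference was called (-1.30, limma adjusted p = 0.0179). PB+RA against RA gave -0.63 (SE 0.25, limma adjusted p = 0.0945; exact permutation p = 0.0286), against 6.50% of all regions with PB+RA below RA without overlap and 9.19% above. In contrast to SOX4, the covered length was alike in the group means, at 5.75, 5.51, 5.66 and 5.40 kb for DMSO, PB, RA and PB+RA, with SDs of 0.70 to 1.17 kb. The share covered with RA differed from DMSO by -1.10 percentage points (SE 8.23, limma adjusted p = 1.00). The difference between the 2 genes in these changes was not tested.

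Extending the rule to 500 kb added 69 regions nearest to SOX4 and 23 nearest to SOX11. Beyond 100 kb downstream of SOX4 lay 27 regions, of which 19 had entered the deposited table through peaks in at least 2 libraries of RA or PB+RA only (12 of RA alone), so that 1 of these groups had to be higher than DMSO. The authors' concentration with RA was above DMSO at 27 of 27 (median difference 1.62), and 17 were called higher by limma and 0 lower. Of the 6 with peaks in at least 2 DMSO libraries, 6 were called higher with RA, where 6.11% of all regions with such peaks were called higher and 9.3% lower. Upstream of SOX4 the median difference was -0.12 over 42 regions, with 3 called higher and 3 lower, against 8.52% and 6.11% of all regions. The widest downstream region, SOX4 +220.5 kb (chr6:21814451-21851985, in a CASC15 intron), had a mean log2 concentration of 8.90 (DMSO), 9.90 (PB), 11.75 (RA) and 11.81 (PB+RA). On this scale, which grows with the length of a region, its RA value was that of the SOX4 start site or above. Its log2 enrichment difference was 2.22 (SE 0.23, limma adjusted p = 3.13e-07) with RA. Around SOX11 the distal regions stood apart from the start site. All 23 had a higher concentration with RA than with DMSO (median difference 1.20), and 12 were called higher and 0 lower, but 12 of the 23 had entered through RA or PB+RA only in the same way. Of the 9 with peaks in at least 2 DMSO libraries, 6 were called higher with RA and 0 lower. The strongest of these calls, SOX11 +292.1 kb (chr2:6124576-6129040), overlapped an exon of the non-coding RNA gene SILC1 (1.72, SE 0.23, limma adjusted p = 1.06e-05). With PB, 3 of the 69 distal SOX4 regions (4.35%, against 4.33% of all regions) were called lower and 0 higher, and 1 of the 23 distal SOX11 regions was called higher. With PB+RA, 14 of the 69 (20.3%) were called higher and 4 (5.8%) lower, and 10 of the 23 higher and 0 lower, against 17.1% and 12.1% of all regions. The PB+RA share called higher at the distal SOX4 regions was thus near that of all regions.

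**Figure D5:**
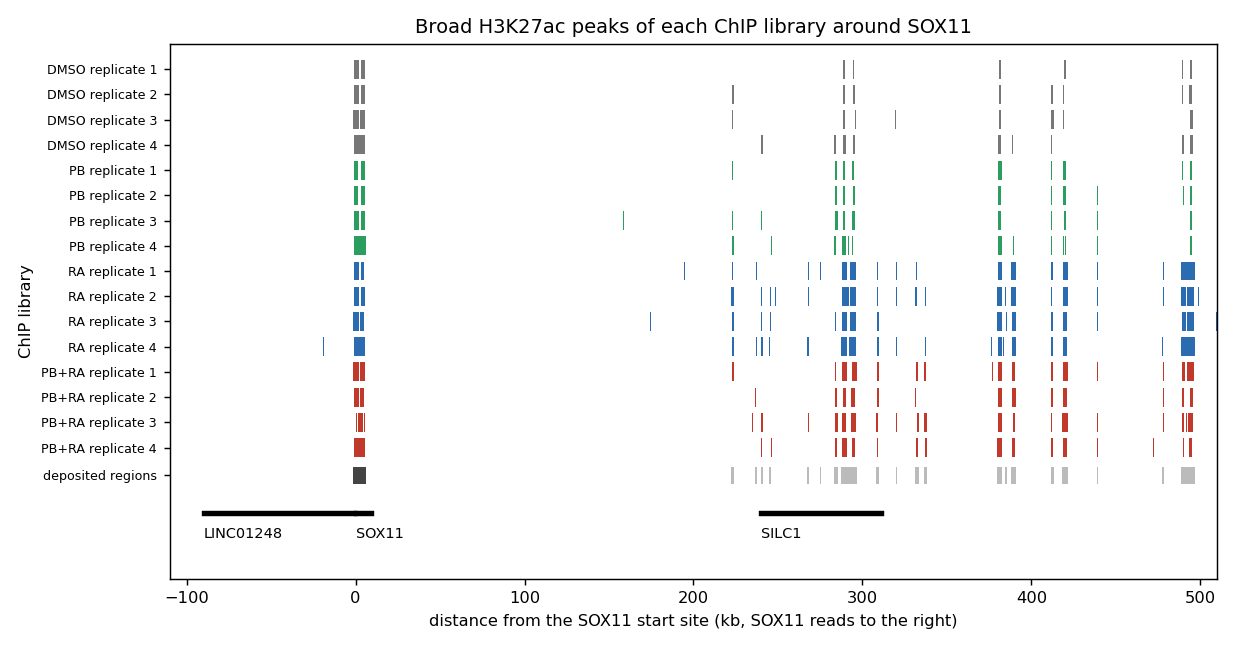
Broad H3K27ac peaks of the 16 ChIP libraries (rows, coloured by group) against distance from the SOX11 start site in kb, with the deposited regions (dark grey within 100 kb, light grey beyond) and annotated genes below. The start-site block is of like width in all groups, and peaks beyond 200 kb downstream are more numerous or wider in RA and PB+RA libraries.

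Of the 17 other SOX genes, 14 had a region within 100 kb, 50 regions in all. Of these, 0 were called higher and 3 lower with PB, 3 higher and 2 lower with RA, and 3 higher and 7 lower with PB+RA. Over all regions the shares called higher and lower were 2.77% and 4.33% with PB, 8.52% and 6.11% with RA, and 17.1% and 12.1% with PB+RA, so these counts were near or below the shares over all regions. SOX12, the remaining SoxC gene, had a start-site region at chr20:303716-311869 whose mean log2 concentration was 10.44 (DMSO), 9.97 (PB), 10.15 (RA) and 10.19 (PB+RA), and no difference there passed the test. The largest calls were at SOX9, a factor of glia and cartilage, with a region 28.4 kb from its start at 1.82 with PB+RA (limma adjusted p = 9.17e-06), and at SOX2, a factor of neural progenitors, whose start-site region fell by 1.58 with PB+RA (adjusted p = 0.00159). SOX8 had 1.26 with RA (limma adjusted p = 0.00334) and SOX7 -1.09 with PB+RA (adjusted p = 0.0120).

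Across the 16 libraries, AP1S1, BHLHE40, EDEM1 and RHOC were among the genes whose start-site enrichment was most like that of SOX4, of 13121 genes (Pearson r 0.970 to 0.952). That of SOX11 was most like TMDD1, RPH3AL, RYK, HLX and ARRDC1 (0.971 to 0.948). The r between SOX4 and SOX11 was 0.532. These correlations are a description over libraries that share group differences and overall enrichment.

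Peaks lay at the start sites of 8 of 10 adrenergic genes in all 4 DMSO libraries, HAND2 and GATA3 among them. PHOX2A had a peak in 3 DMSO libraries and GATA2 had no region at its start. Mesenchymal genes had such peaks at 5 of 6, Schwann and melanocyte genes at 3 of 4, and immune, endothelial and epithelial genes at 0 of 4, 1 of 3 and 1 of 3. These lists did not set the adrenergic label apart from the mesenchymal one.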

How the data were processed

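H3K27ac ChIP libraries of SK-N-BE(2)C cells, 4 per treatment, were analysed, with groups and replicate numbers from the sample titles. Inputs have no values of their own here. The submitters' processing notes name fastp 0.12.4 for trimming, Bowtie2 2.4.4 for alignment (hg19) and MACS2 2.2.7.1, with which the authors called broad peaks of each library over its input, and DiffBind 3.4, with which they made regions from peaks in at least 2 of 4 libraries of a group. The deposited peak lists hold, for each peak, a ratio to input (fold enrichment) and a −log10 q, both as deposited by the authors. The comparison tables give the authors' mean log2 concentration of each group and the authors' log2 folds, p-values and FDR, of which only the concentrations were used. Read counts per library were not used here, so depth is unknown.

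For each region and library, peak enrichment was averaged over the region's bases, with 1 where no peak was listed, and log2 values were fitted in limma 3.58.1 (R 4.3.3, empirical Bayes with trend) with 4 group means over 16 libraries and Benjamini-Hochberg adjustment over 92108 regions. On simulated data for RA against DMSO (92108 regions), 38 of 100 log2 changes of 1 and 99 of 100 of 2 were recovered with 9 false calls, so small differences can be missed. The changes were set only in regions with a mean log2 enrichment above 1, and the simulated libraries varied independently. These rates need not hold for weak regions without a peak in many libraries, or for libraries that deviate together. Regions were assigned to 78714 protein-coding start sites (GENCODE 44 on GRCh37), and 16 regions lay off the reference chromosomes. Deposited region starts equal the 0-based peak starts at all 92108 regions and are printed as deposited.

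Every SOX4 and SOX11 region is accounted for. Named singly were start-site regions, the 3 largest rises and falls in mean concentration per gene and treatment and the 2 highest regions, with SOX12, the 4 SOX genes with the largest calls and genes among the 5 most like each start site. Some items that these rules select are not reported here. The +18.0, +21.1, +35.9 and +39.9 kb regions, where outside that rule, were named because they were called. The distal regions SOX4 +220.5 kb and SOX11 +292.1 kb were named after their values were seen. The members and lists were chosen with earlier results of these data known. Alternatives were other summaries of a region, scaling, filters, distances, centring by GC content, a replicate block, each library left out and an exact permutation test.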

Additional observations from a re-analysis of the deposited data

Results flagged for a closer look

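In 2 of 51 groups of 4 libraries tested, 1 library stood far from the others. At SOX4 -54.8 kb, PB replicate 1 had a fold enrichment of 1.38 while the other PB libraries had no peak there and stood at 1. At SOX4 -10.2 kb, RA replicate 4 had 1.61 while the other RA libraries had no peak and stood at 1. Both are single weak peaks in groups otherwise without one.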

How the results depend on the processing

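No called difference changed sign under any alternative run. At SOX4 +69.7 kb the RA and PB+RA calls against DMSO and the PB+RA call against PB held under all 12 alternatives each. Counts of called SOX4 regions moved by over 1.5 times as follows. For PB (0) they were 1 with libraries scaled to a common median and 3 within 500 kb. For RA (6) they were 3 with the highest peak, 1 with peaks of −log10 q of at least 5, 3 with the groups compared alone, 3 with a minimum difference of 1 and 29 within 500 kb. For PB+RA (6) they were 3 with the q filter, 2 with the minimum of 1, 1 within 50 kb and 24 within 500 kb. For PB+RA against RA (2) they were 1 on the share of bases, with missing bases at 0.5, with regions peaked in at least 4 libraries, with groups alone and with the minimum of 1, 0 with the q filter and within 50 kb, and 10 within 500 kb. For PB+RA against PB (4) they were 2 with the q filter, 2 with groups alone, 1 with the minimum of 1, 1 within 50 kb and 17 within 500 kb. The called count for SOX11 (0 in each comparison) was 1 for PB with the q filter, 1 for PB+RA against RA with scaling and, within 500 kb, 1 for PB, 12 for RA, 10 for PB+RA, 4 for PB+RA against RA and 8 for PB+RA against PB. The cause of these shifts was not tested, beyond the numbers of regions that the distance limits set. With each library left out in turn, SOX4 counts ranged from 0 to 0 for PB, 3 to 6 for RA (3 without RA replicate 2), 5 to 7 for PB+RA, 1 to 4 for PB+RA against RA and 3 to 5 for PB+RA against PB, and SOX11 counts stayed at 0.

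Nothing in the labels says that a replicate number marks a shared batch, and not every same-numbered pair correlated above 0.1: deviations correlated at -0.10 to 0.28 (median 0.15; 14 of 24 pairs over 0.1), against a median of -0.11 for the 72 pairs of unlike number, and 8 of 16 libraries were most like one of their own number. Pairs of unlike number ranged from -0.31 to 0.27, so some were as alike as same-numbered pairs. RA replicate 3 with PB+RA replicate 4 gave 0.27 and DMSO replicate 1 with RA replicate 2 gave 0.26. DMSO replicate 4 with RA replicate 1 gave -0.31. This is a hint of shared deviations from the data and not from the design. Whether the deviations follow the number or a split of replicates 1 and 2 from replicates 3 and 4 was not tested. With a replicate block the SOX4 counts were 0 for PB, 6 for RA, 6 for PB+RA, 3 for PB+RA against RA and 4 for PB+RA against PB. For PB+RA against DMSO the start site was gained and +52.5 kb lost. Over all regions, centring by GC content turned the split of calls (higher and lower) from 2550 and 3989 to 1614 and 631 for PB, from 6986 and 4218 to 3014 and 3353 for PB+RA against RA, and from 9817 and 3310 to 5314 and 6303 for PB+RA against PB. Scaling gave 6660 and 6427 for PB+RA against RA. The q filter gave 1333 and 1679 for RA (7844 and 5625 otherwise) and 340 and 1572 for PB, and the highest peak gave 1990 and 1325 for PB and 13193 and 4850 for PB+RA (15770 and 11129 otherwise).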
